A study of Homo sapiens with 24 samples.

Results

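Processed pseudogenes are the subject here: genes that GENCODE 29 classes as processed_pseudogene or transcribed_processed_pseudogene and that averaged at least 1 TPM (a length-normalised share of a library's transcripts) over the 12 libraries of an experiment. Of 10660 such genes listed in the deposited values, 278 reached that mean in whole cells and 517 in the fractionation experiment, 595 in either and 200 in both. Expression did not enter the split by position. In whole cells 67 members lay inside a protein-coding gene on the same strand, 56 inside one on the opposite strand and 155 outside any. In the fractionation experiment these numbers were 103, 117 and 297. Of the same-strand members in whole cells, 48 lay wholly in introns of their host gene and 19 overlapped an exon of a host transcript. Of the opposite-strand members, 48 lay wholly in introns and 8 overlapped an exon. The text calls the first of these sets the same-strand intronic pseudogenes.

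The cells were A549, an established human lung adenocarcinoma line, and 24 libraries of polyadenylated RNA make up 2 experiments. In whole cells the 4 groups were compound 2, its vehicle DMSO, TAOK2 siRNA against the kinase gene of that name, and control siRNA, and each has 1 library in batch A, in batch B and in batch C. In the fractionation experiment, TAOK2 siRNA and control siRNA were each measured in nuclear, cytoplasmic and total RNA, with 1 library in each of 2 batches. The titles of all whole-cell libraries also carry the word mock, and the control siRNA libraries of the fractionation experiment are titled wt. Both siRNAs were used at 30 nM. The labels describe compound 2, known here only by that code name, as an inhibitor of TAOK2 kinase activity, and neither its dose nor its time is stated in the labels. A549 is a single cancer line grown in culture, which limits it as a model of lung tissue. Where nothing says that libraries came from separate cultures, p-values measure only the spread between these libraries.

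A processed pseudogene is a copy of a messenger RNA that was reverse transcribed by the machinery of LINE-1 retrotransposons and inserted into the genome, so that it has no introns, usually carries no promoter and gathers disabling changes. Many such copies landed in introns, where they are normally transcribed only as a stretch of the host gene's precursor RNA and are removed with the intron, which is degraded in the nucleus. RNA over such a copy in a polyadenylated library can therefore be its own transcript, a retained or unspliced stretch of the host intron, a host transcript that ends early within the intron, or reads that belong to the intact parent gene, and values per gene do not separate these.

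How far the leading members differ from their parents decides whether reads can be told apart, so 60 aligned bases of 6 pairs are shown, 5′ to 3′ on the sense strand, with differing bases in capitals in both. Each window is the first ungapped stretch of that length in the alignment of the pseudogene to the coding sequence of its parent, both read from GENCODE 29 transcripts (GRCh38).
CHMP4BP1: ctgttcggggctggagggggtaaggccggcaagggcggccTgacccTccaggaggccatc
CHMP4B: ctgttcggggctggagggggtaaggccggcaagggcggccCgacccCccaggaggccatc
DNAJC8P2: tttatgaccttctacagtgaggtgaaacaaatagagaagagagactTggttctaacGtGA
DNAJC8: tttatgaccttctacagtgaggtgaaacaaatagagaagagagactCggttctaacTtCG
RPL4P6: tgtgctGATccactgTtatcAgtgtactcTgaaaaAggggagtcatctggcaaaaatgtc
RPL4: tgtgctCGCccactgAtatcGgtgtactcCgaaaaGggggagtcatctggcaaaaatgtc
UBE2FP1: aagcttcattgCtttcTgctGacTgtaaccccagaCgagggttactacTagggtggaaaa
UBE2F: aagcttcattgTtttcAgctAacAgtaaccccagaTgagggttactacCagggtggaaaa
AK3P5: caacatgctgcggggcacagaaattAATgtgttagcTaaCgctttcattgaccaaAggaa
AK3: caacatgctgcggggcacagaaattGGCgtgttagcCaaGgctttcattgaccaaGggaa
PIGCP1: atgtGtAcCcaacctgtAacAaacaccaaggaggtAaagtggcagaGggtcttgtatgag
PIGC: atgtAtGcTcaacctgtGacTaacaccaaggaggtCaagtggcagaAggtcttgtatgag
The windows held 2, 4, 7, 6, 6 and 7 differences, in the order shown. CHMP4BP1, at chr14:55298644-55299231 on the plus strand, matched the coding sequence of CHMP4B, a subunit of the membrane-cutting ESCRT-III complex, at 93.5% of aligned positions. DNAJC8P2, at chr3:136736500-136737229 on the minus strand, was 93.6% identical to DNAJC8, a J-domain protein, and had a stop in the parent's reading frame at codon 39, the last codon of its window. RPL4P6, at chr22:40586700-40588003 on the minus strand, was 81.4% identical to RPL4, a protein of the large ribosomal subunit, with 2 in-frame stops. UBE2FP1, at chr3:37143512-37143958 on the minus strand, was 87.4% identical to the NEDD8-conjugating enzyme gene UBE2F and had its first stop at codon 77, inside its window. AK3P5, at chr10:32944481-32944999 on the plus strand, was 91.4% identical to AK3, a mitochondrial adenylate kinase, with 6 in-frame stops. PIGCP1, at chr11:33075566-33076460 on the minus strand, was 91.3% identical to PIGC, a gene of GPI anchor synthesis, with 0 in-frame stops and 4 gaps opened. Stops were counted in the parent's frame only, so a shift of the reading frame at a gap is not seen by this count. Of the 31-base words in these 6 members, 72.0%, 64.7%, 95.1%, 100%, 93.5% and 88.1%, again in that order, occurred in no other gene listed.

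TAOK2 lay at 8.56 to 12.5 TPM with TAOK2 siRNA against 34.3 to 40.3 TPM with control siRNA in whole cells, and was lower with TAOK2 siRNA in both batches of nuclear, cytoplasmic and total RNA. With compound 2 it lay at 20.5 to 30.7 TPM against 37.5 to 40.6 TPM with DMSO. All 12 epithelial and A549 markers averaged at least 1 TPM in whole cells, from EPCAM at 3.72 to 12.2 TPM and CDH1 at 4.26 to 25.7 TPM up to ALDH1A1 at 5254 to 6759 TPM. In the fractionation experiment 11 of 12 did, and KRT19 was at most 1.22 TPM, against 90.8 to 287 TPM in whole cells. Of 14 markers of leukocytes, endothelium, fibroblasts and erythroid cells, CD14 (1.17 to 6.60 TPM) and COL1A1 (5.47 to 29.6 TPM) averaged at least 1 TPM in whole cells, and CD3E was at 0. In the fractionation experiment LYZ reached 54.1 TPM and CD14 16.5 TPM. The part of other cell types in the results was not tested. TPM keeps no read total, so the depth of each library is unknown, and the labels state only a minimum. In these bulk samples, fewer cells carrying an RNA and less RNA per cell cannot be told apart.

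Compound 2 was compared with DMSO to ask how inhibition of the kinase changed these RNAs. Of the 48 same-strand intronic pseudogenes 30 rose and 10 fell, with a median log2 change of 1.57, where all 13106 genes tested had a median of -0.31. Of these 48, however, 24 averaged under 1 TPM over the libraries without compound 2, so that they were tested only because compound 2 libraries held them, and all 24 rose. The opposite-strand intronic pseudogenes split evenly, 16 of 48 higher and 17 lower (median -0.04), and of the 155 outside protein-coding genes 16 were higher and 80 lower (median -0.38). Counts are genes past an adjusted p of 0.05 in limma over all genes tested. Of all genes 12% were higher and 51.8% lower, against 68 and 121 of the 278 members. The 44 members with a DMSO mean under 1 TPM gave 40 higher and 1 lower. The 234 with a DMSO mean of at least 1 TPM gave 28 higher and 120 lower, shares near those of all genes. Opposite-strand intronic pseudogenes gave 10 higher and 0 lower of 11 under that mean, and 6 higher and 17 lower of 37 at or above it. Same-strand members that overlapped a host exon gave 6 higher and 9 lower of 19, and opposite-strand members that did so gave 0 higher and 5 lower of 8.

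**Figure D1:**
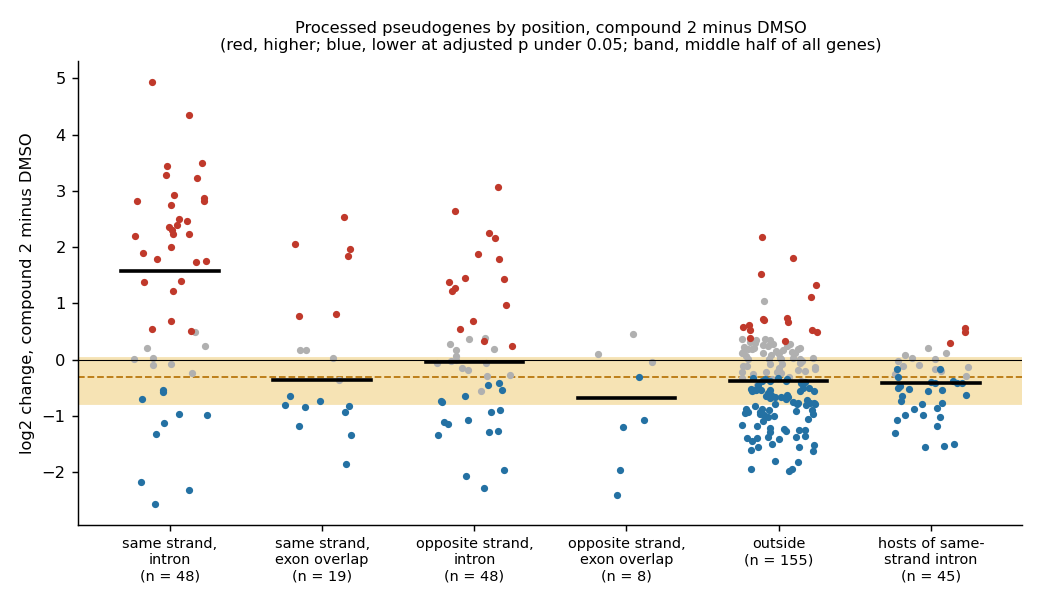
Each point is a processed pseudogene or, at the right, a host gene; the vertical axis is its log2 change, compound 2 minus DMSO, on log2(TPM + 1), and black bars are medians. The 48 same-strand intronic pseudogenes reach 4.93 and have their median at 1.57, while their 45 tested hosts have theirs at -0.42, inside the band of all genes.

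These counts depend on the threshold that defines a member. Members that entered through compound 2 include CHMP4BP1, DNAJC8P2 and RPL4P6, whose changes are given as values with no test. The 24 same-strand intronic pseudogenes with a DMSO mean of at least 1 TPM gave 6 higher and 10 lower, with a median of -0.09. Centring each library on the median of its tested genes turned the balance over all members to 130 higher and 60 lower, with 43.2% of all genes then higher and 24.3% lower. Among same-strand intronic pseudogenes centring gave 36 higher and 6 lower. Members nearest the threshold in whole cells were AL359976.1, at a mean of 1.01 TPM just inside, and HMGB3P20, at 0.999 TPM just outside. In the fractionation experiment they were AC018635.1, at 1.00 TPM, and PCNPP1, at 0.998 TPM.

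A count over all listed genes does not use that threshold. When every listed gene with a value above 0 was fitted, 7.37% of 28871 genes were higher with compound 2 and 25.6% lower. Same-strand intronic pseudogenes gave 156 higher and 59 lower of 983, 15.9% and 6.00%. Opposite-strand intronic ones gave 217 higher and 77 lower of 1665, 13.0% and 4.62%. Those outside gave 104 higher and 247 lower of 4383, 2.37% and 5.64%. Past 2-fold on the log2(TPM + 1) scale, 240 of all 28871 genes were higher and 2226 lower. Of the 983 same-strand intronic pseudogenes 46 were higher and 6 lower past 2-fold. Of the 1665 opposite-strand intronic ones 35 were higher and 9 lower, and of the 4383 outside 10 were higher and 30 lower.

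CHMP4BP1 changed most. It lies in the first of 4 introns of a transcript of FBXO34, an F-box protein gene, an intron of 45901 bases. CHMP4BP1 measured 42.5, 40.1 and 43.4 TPM with compound 2, against 0.568, 0.284 and 0.377 TPM with DMSO. Every compound 2 library was above every library of the other 3 groups, whose highest value was 1.38 TPM, with TAOK2 siRNA. The log2 change was 4.93 ± 0.19 (moderated SE), in a gene that would not have been tested without the compound 2 libraries. FBXO34 itself fell, at 11.7, 11.3 and 10.6 TPM with compound 2 against 17.2, 16.5 and 16.4 TPM with DMSO (log2 change -0.54, limma adjusted p = 2.39e-05). The pseudogene was thus at a higher TPM than the gene that contains it in all 3 compound 2 libraries and below it in all 3 DMSO libraries. The parent CHMP4B, at 144, 133 and 131 TPM with compound 2 and 132, 122 and 122 TPM with DMSO, had a log2 change of 0.11 that did not pass the test.

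DNAJC8P2 and RPL4P6 followed. DNAJC8P2 sits in the first intron of STAG1, a cohesin subunit gene, in an intron of 121213 bases, and measured 29.2, 20.9 and 26.6 TPM with compound 2 against 0.427, 0.257 and 0.221 TPM with DMSO. No compound 2 library overlapped another group. Its log2 change was 4.34 ± 0.14, while that of STAG1 was -0.17 (limma adjusted p = 0.0302). RPL4P6 sits in the intron between exons 2 and 3 of a transcript of MRTFA, a coactivator of serum response factor. It measured 20.7, 19.0 and 17.5 TPM with compound 2 against 0.818, 1.06 and 0.477 TPM with DMSO, again without overlap. Its log2 change was 3.50 ± 0.15, while MRTFA fell by 0.64. RPL4 itself rose little, by 0.19 on the log2 scale, to a mean of 4014 TPM with compound 2 against 3517 TPM with DMSO.

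UBE2FP1 was already present without compound 2. It measured 15.9, 18.6 and 17.0 TPM with compound 2 against 1.04, 1.96 and 2.21 TPM with DMSO, and its lowest compound 2 value was far above the 2.21 TPM that was its highest elsewhere. The log2 change was 2.76 ± 0.17 (limma adjusted p = 3.20e-08), and its host LRRFIP2 changed by -0.17 (adjusted p = 0.079). Not every intronic copy behaved like this. FTH1P15, a ferritin heavy chain copy in BEND6, measured 15, 12.1 and 17.6 TPM with compound 2 against 12.2, 11.8 and 13.1 TPM with DMSO. The groups overlapped, and its log2 change of 0.24 ± 0.16 did not pass the test (limma adjusted p = 0.21). BEND6 was among the weakly expressed hosts, at means of 1.79 TPM with compound 2 and 2.28 TPM with DMSO.

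**Figure D2:**
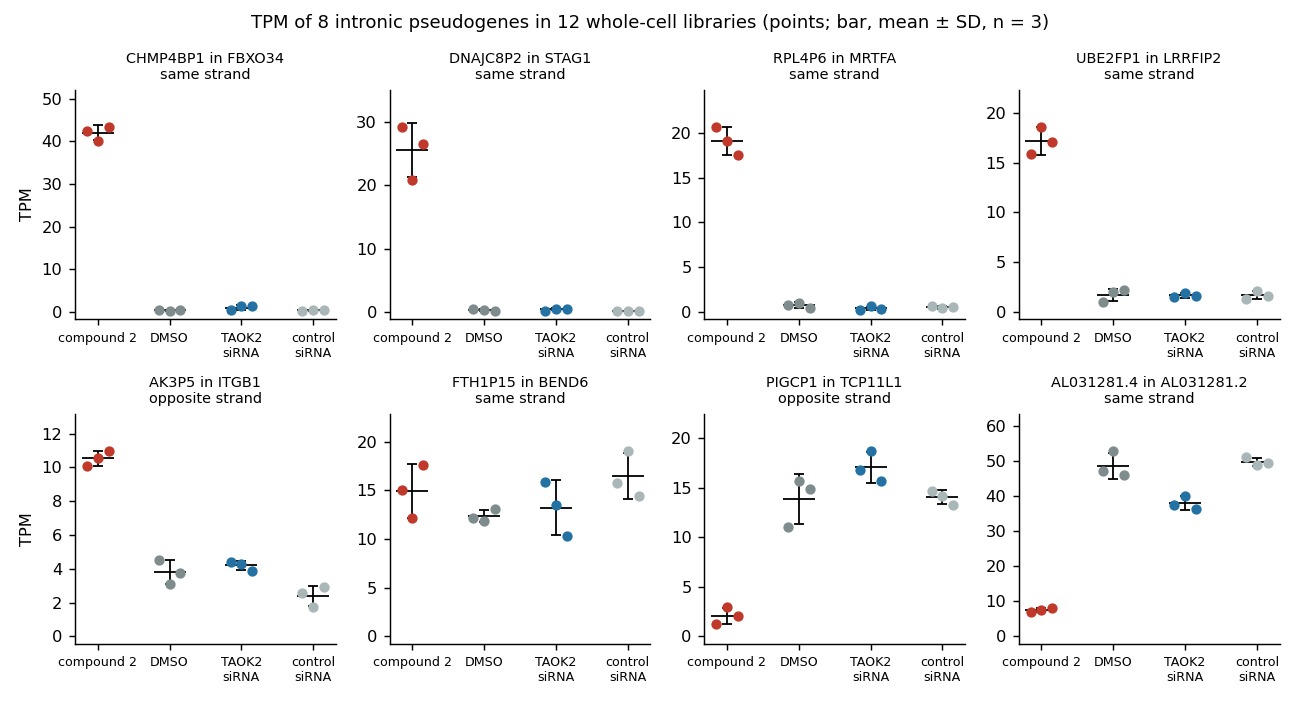
TPM (vertical axes, each from about 0) of 8 intronic pseudogenes in the 12 whole-cell libraries; points are libraries, bars the mean and SD of 3. CHMP4BP1, DNAJC8P2, RPL4P6 and UBE2FP1 are high in the compound 2 libraries and at most 2.21 TPM in the other 9, AK3P5 is intermediate, FTH1P15 overlaps between groups, and PIGCP1 and AL031281.4 are low with compound 2.

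Ribosomal protein copies made up 9 of the 30 same-strand intronic pseudogenes that rose, 1 of the 10 that fell and 0 of the 8 not called. Of the 30 that rose, 24 averaged under 1 TPM with DMSO. The next members by size, named here after their values were seen because their means lay under 5 TPM, included RPS29P16 in the proteasome ATPase gene PSMC2. RPS29P16 measured 11.7, 11 and 9.64 TPM with compound 2 against 0.129, 0 and 0.117 TPM with DMSO, while PSMC2 changed by 0.04 on the log2 scale. RPS7P3 in PCNX2 rose by 3.24 while PCNX2 fell by 0.78. A copy of DYNLT1, AC005244.1 in the kinase gene MAP2K4, rose by 2.82 while MAP2K4 fell by 0.40. EEF1DP7 in the kinase gene MAP3K3 rose by 2.36 although MAP3K3 fell by 1.54, the largest fall among the hosts of the 30. Over all 44 ribosomal protein copies tested, whatever their position, 15 were higher and 14 lower with a median of 0.11. Copies of RNA-binding protein genes gave 0 higher and 2 lower of 3, cytoskeleton genes 2 and 5 of 7, translation factors 1 and 2 of 8, chromatin proteins 1 and 2 of 7, and respiratory chain genes 0 and 1 of 3.

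The hosts did not rise with their pseudogenes. Of the 45 tested hosts of same-strand intronic pseudogenes, 3 were higher and 29 lower with compound 2, with a median log2 change of -0.42. These were 6.67% and 64.4%, against 12% and 51.8% of all genes. Of the 30 pseudogenes that rose, 29 had a tested host, and 21 of these hosts had a log2 change below 0. All genes tested had a median of -0.31 and an upper quartile of 0.03, so a change below 0 was common among genes in general. The ratio of a nested gene to its host was tested directly over 194 pairs of any nested gene on the same strand, of which 45.9% were higher and 21.1% lower. Of 63 pairs with a processed pseudogene, 43 were higher and 9 lower, and of 45 with a same-strand intronic one 34 were higher and 4 lower, with a median log2 change of 1.83. The 24 pairs whose pseudogene had a DMSO mean under 1 TPM were all higher. The 21 others gave 10 higher and 4 lower, 47.6% and 19.0%, shares near those of all pairs. For CHMP4BP1 over FBXO34 the ratio was higher by 5.48 on the log2 scale. Protein-coding genes nested in a protein-coding gene on the same strand gave 22 higher and 52 lower of 123 in their own change, with a median of -0.34. Unprocessed pseudogenes, which arise by duplication of DNA, gave 39 higher and 170 lower of 327, with a median of -0.37.

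**Figure D3:**
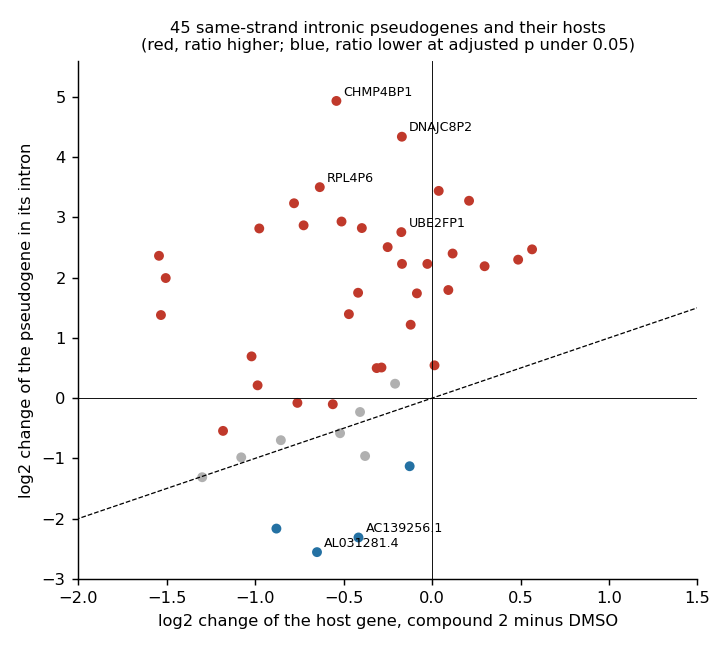
Log2 change of the host gene (horizontal axis) and of the pseudogene in its intron (vertical axis), compound 2 minus DMSO, for 45 pairs; the dashed line marks equal change. Most points lie above the line, 34 with a higher ratio past the test, of which 24 are pseudogenes with a DMSO mean under 1 TPM, and CHMP4BP1 stands at 4.93 above a host at -0.54, while AL031281.4 lies below the line at -2.56.

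Parents were unlike both. Of 127 tested parent genes found by symbol, 57 were higher and 27 lower, with a median of 0.16, and of the 30 parents of same-strand intronic pseudogenes 14 were higher and 6 lower. Parents were far more abundant than their copies: for the pseudogenes that rose, the parent's mean over the 12 libraries had a median of 773 TPM. Reads that belong to a parent can be given to its copy where the sequences agree. Restricting the same-strand intronic set to the 41 members with at least 50% of their 31-base words found in no other gene gave 27 higher and 8 lower, with a median of 1.80. Across the 48, the change had a Spearman correlation of -0.10 with that share, 0.13 with the change of the parent (33 pairs), 0.30 with the change of the host (45 pairs) and 0.32 with the host's level. It was 0.08 with intron length, -0.28 with the rank of the intron and -0.17 with the distance from the host's start. These correlations are across genes that share the same libraries and describe them only. Both the 41 and the 48 hold members tested only because of the compound 2 libraries, such as CHMP4BP1. The rises in both sets were therefore in part fixed by the threshold, and the part of parent reads was not tested.

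Where in the genome a copy sat went with whether it was seen, over all listed genes and without a threshold on their mean. Of 1188 same-strand intronic pseudogenes listed, 73, 93 and 70 reached 1 TPM in the compound 2 libraries, against 33, 34 and 34 in the DMSO libraries. With TAOK2 siRNA the number was 36, 35 and 32, against 30, 31 and 29 with control siRNA. Of 1989 on the opposite strand of an intron, 76, 89 and 70 reached 1 TPM with compound 2 and 44, 49 and 45 with DMSO. Of 7201 outside, 139, 136 and 143 did so with compound 2 and 170, 167 and 165 with DMSO. The compound 2 libraries were thus above every DMSO library for both intronic classes and below every DMSO library outside. Summed TPM of the same-strand intronic class was 506, 579 and 469 with compound 2 against 262, 257 and 254 with DMSO. Without the 3 highest genes of each library it was 414, 500 and 381 against 185, 177 and 183.

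**Figure D4:**
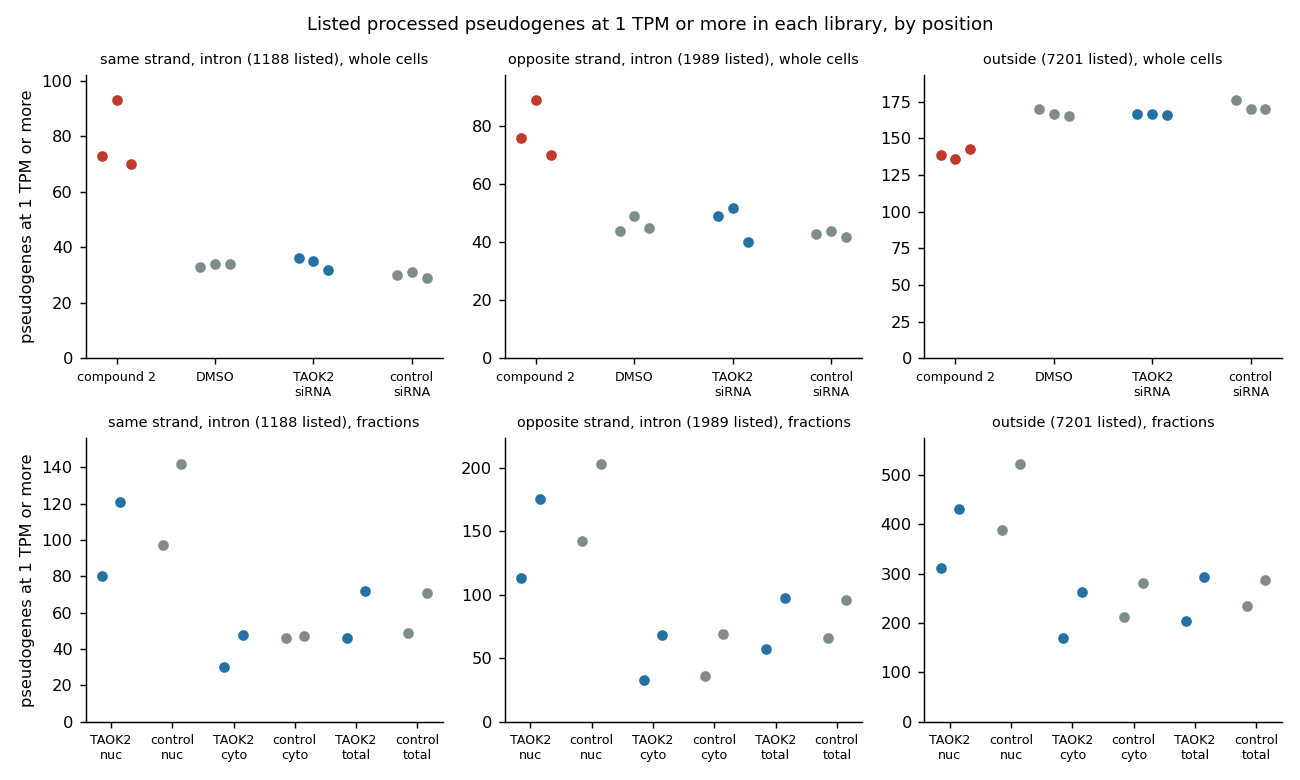
Number of listed processed pseudogenes at 1 TPM or more (vertical axes, from 0) in each library, for same-strand intronic, opposite-strand intronic and outside genes; upper row, whole cells, lower row, nuclear (nuc), cytoplasmic (cyto) and total RNA with TAOK2 or control siRNA. In whole cells the compound 2 libraries are highest in both intronic classes and lowest outside; in the fractions the nuclear libraries are highest in each class within each batch.

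The level of the host went with this. Listed same-strand intronic pseudogenes were grouped by the mean TPM of their host over the 12 libraries, and a pseudogene was counted when all 3 libraries of a group held at least 1 TPM. With hosts of at least 30 TPM, 28 of 215 were counted with compound 2 (13.0%) against 7 with DMSO. With hosts of 10 to 30 TPM, 21 of 269 were counted with compound 2 (7.81%) against 5 with DMSO. With hosts of 1 to 10 TPM, 6 of 307 were counted with compound 2 and 6 with DMSO, and with hosts under 1 TPM 3 of 397 with either. Summed TPM in hosts of 10 to 30 TPM was 204 ± 23 with compound 2 against 61.1 ± 1.7 with DMSO (SD, n = 3 each). In hosts of 1 to 10 TPM it was 77.1 ± 8.3 with compound 2 against 115 ± 4.9 with DMSO. This group holds AL031281.4, whose host averaged 1.52 TPM and whose log2 change was -2.56. In TPM the fall of AL031281.4 was as large as that of the sum, so the other pseudogenes of this group together did not fall on average.

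Position within the host was described for hosts of at least 10 TPM. In the first intron 17 of 177 pseudogenes were counted with compound 2 against 2 with DMSO, and in introns 2 and 3 the numbers were 14 of 119 against 3. In introns 4 to 6 they were 10 of 82 against 2, and in later introns 8 of 106 against 5. By distance, 8 of 54 within 10 kb of the host's start were counted with compound 2 against 2 with DMSO, 29 of 195 at 10 to 50 kb against 5, and 10 of 168 at 50 to 150 kb against 3. Beyond 150 kb 2 of 67 were counted with either. On the opposite strand, 33 of 465 in hosts of at least 30 TPM were counted with compound 2 against 9 with DMSO. In hosts of 10 to 30 TPM the numbers were 13 of 527 against 11, in hosts of 1 to 10 TPM 5 of 449 against 9, and in hosts under 1 TPM 4 of 548 against 3. Whether the libraries or the counting kept strand is not stated, so reads from the host precursor and from an opposite-strand copy cannot be told apart.

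Among opposite-strand intronic pseudogenes AK3P5, in the integrin beta 1 gene ITGB1, was the largest named rise. AK3P5 measured 10.1, 10.5 and 11 TPM with compound 2 against 4.53, 3.09 and 3.76 TPM with DMSO, with no overlap (log2 change 1.28 ± 0.14, limma adjusted p = 5.80e-06). ITGB1 lay at a mean of 1457 TPM with compound 2 against 1318 TPM with DMSO, a log2 change of 0.14 that did not pass the test. The parent AK3 rose by 0.69. Members with lower means, named after their values were seen, included AC004134.1 in the adaptor gene AP2B1, which averaged 11.7 ± 2.3 TPM with compound 2 against 0.499 ± 0.079 TPM with DMSO (SD, n = 3 each). SAP30P1 in SELENOT averaged 5.63 ± 2.1 TPM with compound 2 against 0.0222 ± 0.019 TPM with DMSO. Both AC004134.1 and SAP30P1 averaged under 1 TPM with DMSO, so the threshold bears on the rises of this class as well. Of the 45 tested hosts of this class 5 were higher and 28 lower.

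Outside protein-coding genes the share that rose was 10.3%, near the share of all genes. AC009299.1, with no parent found, lies at chr2:161281902-161282618 on the plus strand, 45681 bases past the end of TANK. AC009299.1 measured 72.2, 67.3 and 72.2 TPM with compound 2 against 16.3, 12.9 and 15.1 TPM with DMSO, with no overlap (log2 change 2.19 ± 0.14, limma adjusted p = 4.80e-08), while TANK fell by 1.12. ZNRF2P1, a copy of the ubiquitin ligase gene ZNRF2, averaged 53.9 ± 7.2 TPM with compound 2 against 24.2 ± 2.2 TPM with DMSO. AL773545.3 averaged 20.9 ± 2.3 TPM with compound 2 against 7.65 ± 0.52 TPM with DMSO (SD, n = 3 each). DPY19L2P5 rose by 0.70 and, overlapping an exon of PANK1 on its strand, AL157400.5 by 0.81. For AL157400.5 none of the 31-base words was its own.

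Of the members outside protein-coding genes 51.6% fell, near the share of all genes. WASH5P, closest in sequence to the WASH complex gene WASHC1, measured 8.43, 10.1 and 7.62 TPM with compound 2 against 37.6, 35.3 and 35.5 TPM with DMSO. All 3 compound 2 libraries were below all others (log2 change -1.94 ± 0.10, limma adjusted p = 1.04e-08). PFN1P2, a copy of the actin-binding profilin gene PFN1, measured 1.65, 1.81 and 1.84 TPM with compound 2 against 10.9, 8.52 and 9.51 TPM with DMSO, although PFN1 rose by 0.27. PLEKHA8P1 averaged 5.27 ± 0.92 TPM with compound 2 against 18.3 ± 1.5 TPM with DMSO (SD, n = 3 each). ZBTB45P2, with 5.06% of its 31-base words its own, fell by 1.49.

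Some intronic members also fell. AL031281.4, in an intron of the clone-named coding gene AL031281.2, measured 6.92, 7.41 and 8.04 TPM with compound 2 against 47.2, 53.0 and 46.1 TPM with DMSO (log2 change -2.56 ± 0.08, limma adjusted p = 8.40e-10). Its host was under 2 TPM throughout, so its TPM exceeded that of the host in all 12 libraries. PIGCP1, on the opposite strand of TCP11L1, measured 1.29, 2.92 and 2.06 TPM with compound 2 against 11, 15.7 and 14.9 TPM with DMSO, and TCP11L1 fell as well, by 1.14. AC025423.2, which overlaps an exon of the p53 ubiquitin ligase gene MDM2 and has no 31-base word of its own, averaged 3.42 ± 1.0 TPM with compound 2 against 14.7 ± 1.4 TPM with DMSO (SD, n = 3 each), and MDM2 fell by 1.01. LSM12P1, also without a word of its own, measured 4.98, 0 and 6.26 TPM with compound 2 against 9.74, 11.5 and 22.5 TPM with DMSO. Its log2 change of -2.06 ± 0.64 passed (limma adjusted p = 0.0165), but the call was lost in 4 alternatives and kept in 9. Among the 4 was the fit without DMSO replicate 3 (limma adjusted p = 0.0628). All 10 same-strand intronic pseudogenes that fell had a host with a log2 change below 0, as did the 6 with a tested host that were not called and 21 of 29 that rose. The median log2 change of all genes tested was below 0 as well, at -0.31.

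Knockdown of TAOK2 in whole cells, which lowers the kinase's RNA without removing it, moved few processed pseudogenes. Of the 278 members 11 were higher and 12 lower with TAOK2 siRNA than with control siRNA, against 7.78% higher and 14.4% lower among all genes tested, and the members' median log2 change was 0.02. With batch as a replicate block 17 were higher and 13 lower, against 10.4% and 17.5% of all genes. Leaving out 1 library at a time gave 6 to 9 higher and 5 to 10 lower. Among the 48 same-strand intronic pseudogenes 0 were higher and 1 was lower, and 2 were higher and 2 lower at an unadjusted p under 0.05. CHMP4BP1 measured 0.350, 1.38 and 1.35 TPM with TAOK2 siRNA against 0.326, 0.432 and 0.576 TPM with control siRNA. The groups overlapped, and its log2 change of 0.45 ± 0.19 did not pass (limma adjusted p = 0.11).

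The members that did move were small changes at moderate levels. RAB11FIP1P1, a copy of the Rab11 effector gene RAB11FIP1 on chromosome X, measured 10.2, 10.7 and 9.77 TPM with TAOK2 siRNA against 5.39, 6.62 and 5.55 TPM with control siRNA. No libraries overlapped (log2 change 0.71 ± 0.10, limma adjusted p = 6.39e-04), and with compound 2 it moved the other way, to a mean of 1.40 TPM against 5.55 TPM with DMSO. AK3P5 measured 4.41, 4.30 and 3.89 TPM with TAOK2 siRNA against 2.54, 1.73 and 2.91 TPM with control siRNA (log2 change 0.63 ± 0.14), while its host ITGB1 fell by 0.78, to 711 TPM with TAOK2 siRNA against 1221 TPM with control siRNA. BX088651.1, with 2.85% of its 31-base words its own, averaged 10.5 ± 0.67 TPM with TAOK2 siRNA against 14.7 ± 0.82 TPM with control siRNA (SD, n = 3 each). AL031281.4 was the same-strand intronic member that fell, at 37.7, 40.2 and 36.4 TPM with TAOK2 siRNA against 51.2, 48.9 and 49.7 TPM with control siRNA. Its log2 change was -0.38 (limma adjusted p = 0.00474).

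The other named changes under knockdown did not hold under every alternative. WHAMMP1, VDAC1P8, FAM3C2 and PFN1P2 rose by 0.47, 0.45, 0.42 and 0.37 on the log2 scale, and AC004057.1, MSL3P1, RPL13P5, AC011497.2 and AC098614.1 fell by 0.71, 0.52, 0.47, 0.42 and 0.42. Each lost its call when at least 1 of the 6 siRNA libraries was left out, with limma adjusted p between 0.0506 and 0.166 in those fits. Other processing settings also removed calls. Over all alternatives AC004057.1 lost its call in 10 and kept it in 3, and VDAC1P8 lost its call in 7 and kept it in 6. AC004057.1, closest in sequence to RPS26 and in an intron of ANK2 on the opposite strand, averaged 125 ± 19 TPM with TAOK2 siRNA against 202 ± 15 TPM with control siRNA (SD, n = 3 each).

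Whether the compound and the siRNA differed was tested as the difference of the 2 effects, which share no control libraries. Of the 278 members 58 had a higher and 97 a lower effect with compound 2, against 12.3% and 42.4% of all genes. After median centring these were 102 and 45, against 35.7% and 21.1% of all genes. Without centring, the 234 members with a DMSO mean of at least 1 TPM gave 22 and 96, and the 44 under that mean gave 36 and 1. Of the same-strand intronic pseudogenes 28 had a higher and 8 a lower effect, but those with a DMSO mean of at least 1 TPM gave 5 and 8, and the other 23 are among the members with a DMSO mean under 1 TPM. The difference was 4.49 for CHMP4BP1, 4.09 for DNAJC8P2, 3.62 for RPL4P6 and 2.75 for UBE2FP1 on the log2 scale.

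The fractionation experiment asked where these RNAs lay, here in cells with control siRNA. Of 517 members 231 were higher and 21 lower in nuclear than in cytoplasmic RNA. Among all 13751 genes tested 29.8% were higher and 18.9% lower. The members' median log2 change was 1.04, against 0.21 for all genes. It was 1.39 for 80 same-strand intronic members (44 higher, 4 lower), 1.66 for 100 opposite-strand intronic members (57 higher, 1 lower) and 0.69 for 297 outside (112 higher, 15 lower). Unprocessed pseudogenes had a median of 1.29, with 237 higher and 10 lower of 412. Nuclear libraries count towards the mean that defines a member, so members can have been tested only because those libraries held them. Of all listed processed pseudogenes 679 and 921 reached 1 TPM in nuclear RNA with control siRNA, against 317 and 421 in cytoplasmic RNA. The nuclear excess here and in the counts by host, uniqueness and family was therefore in part fixed by the threshold. With batch as a replicate block 290 members were higher and 69 lower, against 40.5% and 27.7% of all genes. After median centring the counts were 186 and 50, against 20.2% and 29.8%. Genes of the mitochondrial genome made up 42.5% and 37.9% of TPM in nuclear libraries with control siRNA, against 13.9% and 10.8% in cytoplasmic ones. With these genes removed and TPM rescaled, 280 members were higher and 14 lower, against 46.8% and 9.97%. Of 3 RNAs planned as nuclear markers, 0 were listed. The 6 planned cytoplasmic markers, mitochondrial genes among them, summed to 94872.5 to 100407 TPM in nuclear RNA with control siRNA. In cytoplasmic RNA with control siRNA they summed to 25019 to 26601 TPM. The purity of the fractions was not tested.

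**Figure D5:**
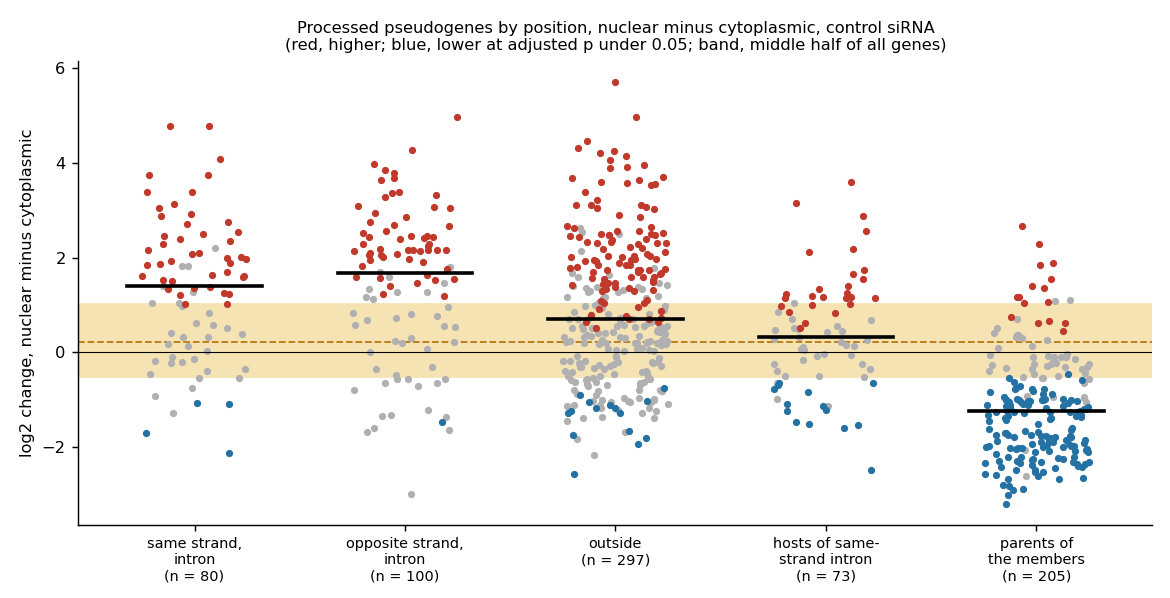
Log2 change, nuclear minus cytoplasmic RNA with control siRNA, on log2(TPM + 1) (vertical axis) for members by position, the hosts of same-strand intronic members and the parents of all members; black bars are medians and the band is the middle of all genes. Intronic members have medians of 1.39 and 1.66, their same-strand hosts 0.32 and the parents -1.24. Nuclear libraries count towards the threshold that defines a member.

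Hosts and parents lay elsewhere. The 73 tested hosts of same-strand intronic members had a median of 0.32, with 26 higher and 14 lower, and the 205 tested parents a median of -1.24, with 16 higher and 140 lower. The ratio of nested gene to host was tested over 234 pairs, of which 27.8% were higher and 16.2% lower in nuclear RNA. Of 73 pairs with a same-strand intronic pseudogene 30 were higher and 7 lower, with a median of 1.23. How far a copy could be told from its parent went with its place: of 353 members with at least 50% of their words unique 187 were higher and 6 lower, and of 164 below that 44 were higher and 15 lower, with medians of 1.37 and -0.10. Ribosomal protein copies had a median of 0.02 (33 higher and 9 lower of 107), and those of translation factors -0.39 (4 and 4 of 13). Copies of RNA-binding protein genes had a median of 2.64 (5 and 0 of 7) and of respiratory chain genes 1.61 (8 and 0 of 12).

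The most nuclear member was AC245884.3, closest in sequence to LSM6 and on chromosome 19, at 88.3 and 118 TPM in nuclear RNA with control siRNA against 1.1 and 0.840 TPM in cytoplasmic RNA. Its log2 change was 5.71 ± 0.41 (limma adjusted p = 2.69e-05). Nuclear libraries count towards the threshold for members, so the nuclear excess of those named here was in part fixed by it. AC009299.1, which rose with compound 2 in whole cells, measured 43.0 and 46.6 TPM in nuclear RNA against 0.349 and 0.583 TPM in cytoplasmic RNA. AC139256.1, in the last intron of PDXDC1, measured 38.8 and 29.5 TPM in nuclear RNA against 0.251 and 0.295 TPM in cytoplasmic RNA, while PDXDC1 differed by 0.51 on the log2 scale. The same AC139256.1 fell with compound 2, to a mean of 0.557 TPM against 6.75 TPM with DMSO. AC060780.2 and AC093392.2 were listed at 0 in both cytoplasmic libraries, with 26.2 and 27.1 TPM in nuclear RNA for AC060780.2 and 14.5 and 30.7 TPM for AC093392.2. AC103810.6 measured 79.0 and 27.4 TPM in nuclear RNA against 1.32 and 0 TPM in cytoplasmic RNA.

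Of the 21 members lower in nuclear than in cytoplasmic RNA, 9 were copies of ribosomal protein genes and 4 of translation factor genes. EEF1A1P5 measured 2.91 and 4.18 TPM in nuclear RNA against 15.3 and 13.0 TPM in cytoplasmic RNA, a log2 change of -1.74, and its parent EEF1A1, the elongation factor gene, changed by -1.86. Only 5.89% of the words of EEF1A1P5 were its own. EEF1A1P6 changed by -1.70 and RPL32P29, with none of its own, by -2.52, where RPL32 changed by -2.69. FTH1P15 measured 2.07 and 3.68 TPM in nuclear RNA against 21.6 and 11.1 TPM in cytoplasmic RNA, a log2 change of -2.12, and FTH1 changed by -2.61. SLC25A1P5, a copy of the citrate carrier gene with 99.3% of its words its own, changed by -1.13 ± 0.20 (limma adjusted p = 0.00175). RPL9P9 changed by -2.58 ± 0.76 and lost its call when either nuclear library or the second cytoplasmic library was left out (limma adjusted p = 0.0861, 0.0695 and 0.112).

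The pseudogenes that rose with compound 2 were little expressed in the fractions. The 30 same-strand intronic ones summed to 43.2 and 61.7 TPM in nuclear RNA with control siRNA, against 18.8 and 37.7 TPM in cytoplasmic RNA. With TAOK2 siRNA they summed to 30.4 and 49.6 TPM in nuclear RNA against 43.8 and 33.6 TPM in cytoplasmic RNA, so that batch 1 went the other way. In whole cells the same 30 summed to 284, 291 and 252 TPM with compound 2 against 21.4, 21.2 and 22 TPM with DMSO, which is how they were chosen. Only 10 of the 30 reached the mean of 1 TPM in the fractionation experiment, and CHMP4BP1 averaged 0.363 TPM there, DNAJC8P2 0.0560 TPM and RPL4P6 0.306 TPM. UBE2FP1 measured 1.94 and 4.69 TPM in nuclear RNA with control siRNA against 1.24 and 3.39 TPM in cytoplasmic RNA, which did not pass the test. Compound 2 was not applied in this experiment, so where its additional pseudogene RNA lay was not measured.

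Knockdown within the fractions changed no member by the main test. Of 517 members 0 were called in nuclear, cytoplasmic or total RNA or in the difference between nuclear and cytoplasmic effects, where limma called 0.0145% of all genes higher and 0.0% lower in nuclear RNA and 0.0% either way in the others. In nuclear RNA at an unadjusted p under 0.05, 4 members were higher and 47 lower with TAOK2 siRNA, against 518 and 810 of all 13751 genes, and the members' median log2 change was -0.31 against -0.05 for all genes. With batch as a replicate block 1 member was higher and 21 lower in nuclear RNA, against 2.77% and 3.13% of all genes. In cytoplasmic RNA the block gave 1 higher and 7 lower, against 1.49% and 1.45%, and in total RNA 0 higher and 1 lower, against 1.66% and 0.807%. The number of listed same-strand intronic pseudogenes at 1 TPM or more in nuclear RNA was 80 and 121 with TAOK2 siRNA against 97 and 142 with control siRNA. On the opposite strand it was 113 and 175 against 142 and 203, and outside 311 and 432 against 388 and 523. The value with TAOK2 siRNA was the lower in both batches of each class, with 2 libraries per group.

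The most abundant members in whole cells differed in how much sequence was their own. AC010970.1, on chromosome Y with no parent found and 100% of its words its own, measured 1521, 3701 and 4396 TPM with compound 2 against 599.6, 3343 and 1427 TPM with DMSO. The groups overlapped, and the difference did not pass the test. RPL23AP42 averaged 1377 TPM over the 12 libraries with 7.03% of its words its own, RPS28P7 178 TPM with none and RPS2P5, opposite to the kinase gene TAOK3, 349 TPM with 11.7%. RPL23AP42 changed by 0.11 with compound 2, which did not pass, and by 0.23 with TAOK2 siRNA (limma adjusted p = 0.0151). HMGB1P6, in THSD4 on the opposite strand, averaged 107 TPM, and among same-strand members BTF3L4P2 in TANC1 averaged 14.9 TPM. In the fractionation experiment RPS28P7 measured 120 and 0 TPM in the nuclear libraries with control siRNA and 692 and 0.209 TPM in the cytoplasmic ones, so that its value went with the batch. ITGB1P1 and BZW1P2, with 0% and 0.377% of their words their own, averaged 162 and 56.1 TPM there, against 0 and 0.515 TPM in whole cells. LSM12P1 averaged 23.2 TPM in the fractionation experiment. Most members were far lower: the median of the members' means was 2.49 TPM in whole cells and 2.29 TPM in the fractionation experiment, and 3424 of the 10660 listed were at 0 in every whole-cell library.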

How the data were processed

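Values are gene-level TPM. Per the submitters' processing notes kallisto was used with build GRCh38.p14; neither its version nor any use of strand is stated there or in the labels. The authors deposited TPM per Ensembl transcript for 188753 transcripts, 12 libraries in each of 2 experiments, each library summing to 1000000. Libraries were paired 150 bp reads of polyadenylated RNA, per the labels' protocols. TPM keeps no read total, so no counting interval is given.

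Transcripts were matched by identifier to GENCODE 29 (169797, or 90.0%, holding 97.0% to 98.3% of TPM) and summed per gene; 0 columns were left unused. For the members called intronic, no exon of a host transcript in GENCODE 29 covers the pseudogene. A read from the host intron over such a pseudogene can therefore be assigned to the pseudogene but not to the host. Hosts are protein-coding genes that contain the pseudogene in full. Uniqueness is the percentage of a gene's 31-base words found in no other listed gene. Sequences were aligned with blastn 2.17.0+.

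Genes averaging 1 TPM or more were tested on log2(TPM + 1) with limma 3.58.1 (R 4.3.3, trend and robust settings), one mean per group over all 12 libraries of an experiment, with Benjamini-Hochberg adjustment over all genes tested at 0.05. Fold changes on this scale understate those of low genes. The ratio of nested gene to host was fitted in the same way. SE is limma's moderated standard error. On simulated data for compound 2 (13106 genes), 93% of 100 genes changed by 1 on the log2 scale and 99% of 100 changed by 2 were recovered, with 6 false calls. For nuclear minus cytoplasmic RNA (13751 genes) these were 25% and 80%, with 7 false calls.

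Replicates correlated at 0.984 to 0.997 in whole cells and 0.928 to 0.970 in the fractions. The labels give the batch, which pairs libraries across groups; deviations of same-batch libraries correlated at -0.30 to 0.64 in whole cells (12 of 18 pairs above 0.1) and 0.53 to 0.84 in the fractions (30 of 30). Alternatives were a pseudocount of 0.1, no filter, a mean of at least 5 TPM, median centring, batch as a replicate block, no trend or robust settings, only the groups compared, any overlap as containment, and each library left out. Removal of mitochondrial genes and the limits on DMSO level and on uniqueness were chosen after seeing the data.

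Named members are CHMP4BP1, DNAJC8P2 and RPL4P6, then the largest called changes among members with a mean of at least 5 TPM and the same sign in every batch (10 rises and 8 falls for compound 2, 6 and 6 for whole-cell knockdown and for nuclear minus cytoplasmic), and the 3 of highest mean in each position class; others are said to be chosen after their values were seen. The members and lists were chosen with earlier results of these data known.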

Additional observations from a re-analysis of the deposited data

Results flagged for a closer look

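For 25 of 28 named members the effect of compound 2 over DMSO and that of TAOK2 siRNA over control siRNA in whole cells differed by limma's test of the difference itself (adjusted p under 0.05 over all genes, where 12.3% were higher and 42.4% lower). The 28 were named for a large change in one of these effects, so a difference between the effects was in part fixed by that choice. CHMP4BP1, DNAJC8P2 and RPL4P6 are among the 25 but were tested only because compound 2 libraries held them. Their differences are therefore to be read as values with no test. The values are the first effect minus the second on the log2(TPM + 1) scale. The effect of compound 2 was the higher for CHMP4BP1 (4.49), DNAJC8P2 (4.09), RPL4P6 (3.62), UBE2FP1 (2.75), AC009299.1 (2.26), AL773545.3 (1.16), AK3P5 (0.64), ZNRF2P1 (0.97), AL157400.5 (0.79), DPY19L2P5 (0.59), AC004057.1 (1.08) and AC011497.2 (0.75). It was the lower for AL031281.4 (-2.17), PIGCP1 (-2.55), WASH5P (-2.06), PFN1P2 (-2.31), AC025423.2 (-1.44), PLEKHA8P1 (-1.72), ZBTB45P2 (-1.37), RAB11FIP1P1 (-2.16), WHAMMP1 (-0.55), VDAC1P8 (-1.10), FAM3C2 (-0.40), RPL13P5 (-0.72) and AC098614.1 (-0.84). RAB11FIP1P1, PFN1P2 and VDAC1P8 rose with TAOK2 siRNA and fell with compound 2, and the knockdown calls of PFN1P2 and VDAC1P8 were lost under some alternatives.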

How the results depend on the processing

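Of the values recomputed under an alternative, 718 kept their direction and their side of the threshold or a count within 1.5 times, 57 lost a call, 37 were counts outside that range and 0 reversed. The 57 lost calls were in 11 named members. Requiring a mean of at least 5 TPM left 77 members in whole cells and 124 in the fractions. It gave 18 higher and 34 lower for compound 2, 5 and 2 for its same-strand intronic members, 7 higher for whole-cell knockdown, 15 and 29 for the difference of the effects, and 51 and 11 for nuclear minus cytoplasmic. The nested gene to host ratio then gave 7 higher with compound 2 and 6 higher in nuclear RNA. Median centring gave 130 higher and 60 lower for compound 2, 6 lower for its same-strand intronic members, 102 and 45 for the difference and 50 lower for nuclear minus cytoplasmic; the median of all genes under compound 2 was -0.31. Limiting same-strand intronic members to a DMSO mean of at least 1 TPM gave 6 higher. With no filter 7 members were higher under whole-cell knockdown and 1 lower under nuclear knockdown. Fitting only the groups compared gave 20 lower under whole-cell knockdown.

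With batch as a replicate block 17 members were higher under whole-cell knockdown and 69 lower in nuclear RNA. Knockdown under the block gave 1 higher and 21 lower in nuclear RNA, 1 and 7 in cytoplasmic RNA and 1 lower in total RNA, and AC004057.1 lost its call (limma adjusted p = 0.0604).

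Leaving out each library in turn gave 62 to 71 higher and 111 to 117 lower for compound 2, and 28 to 30 and 8 to 10 for its same-strand intronic members. It gave 6 to 9 and 5 to 10 for whole-cell knockdown, 56 to 62 and 87 to 96 for the difference, and 172 to 226 and 12 to 19 for nuclear minus cytoplasmic. For knockdown it gave 0 to 1 higher in cytoplasmic RNA and 0 to 1 lower for the nuclear minus cytoplasmic difference. The ratio gave 41 to 43 higher with compound 2 and 19 to 25 higher in nuclear RNA. The ratio was not run without a filter or with median centring, which cancels in it. Apart from counts that had fewer members or libraries by construction, the cause was not tested. With 2 libraries per fraction, the recovery on simulated data limits what calls can show there.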

Other observations

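RAB11FIP1P1, chosen here after its values were seen, measured 51.2 and 64.9 TPM in nuclear RNA with control siRNA against 1.60 and 2.33 TPM in cytoplasmic RNA. With TAOK2 siRNA it measured 38.5 and 47.3 TPM in nuclear RNA against 0.793 and 1.83 TPM in cytoplasmic RNA. AL031281.4, in an intron on its host's strand, lay the other way, at 104 and 262 TPM in nuclear RNA with control siRNA against 183 and 544 TPM in cytoplasmic RNA.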
